A study of Rattus norvegicus with 32 samples.

Results

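Chemokines and their receptors were described here in rat tibialis anterior (TA) muscle after volumetric muscle loss (VML), a loss of tissue too large for muscle to regrow on its own. The members were all genes of the authors' deposited table whose rat symbol begins with Ccl, Cxcl, Cx3cl, Xcl, Ccr, Cxcr, Cx3cr, Xcr or Ackr and a number, without Ccrl2, and without the Ccr4-NOT genes of RNA decay. This rule found 52 genes on 54 transcripts, of 16405 genes on 18281 transcripts in the whole table. They were 33 ligands, 17 receptors and 2 atypical receptors. Another 5 genes that the rule would take (Ackr1, Ackr4, Ccr2, Ccr8 and Cxcl3) were not analysed here.

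A biopsy punch removed tissue from the middle of the TA of Sprague Dawley rats (strain label HSD), and the defect was left empty (VML), filled with autologous minced muscle made from the removed tissue (MM), filled with decellularized rat TA (DSM), or filled with both (DSM+MM). Muscle was taken at 3 or 14 days post injury (DPI), and each group is written with its day, as in DSM3 or DSM+MM14. The labels give 3 libraries for each of the 8 injured groups and 4 libraries of uninjured muscle at each day, 32 in all. For force and mass the study's uninjured muscle was the contralateral TA of injured rats. If the RNA controls were taken there too, they shared the animal's systemic response, its analgesia and the nerve stimulation that preceded tissue collection. No age or sex was given in the sources used here. The sampled punch spanned the border of the defect, and for bulk tissue of this kind more cells of a type and more RNA per cell cannot be told apart. Single-library values were not analysed here. The spread between rats is known only through the error of each comparison, and overlap between groups of rats cannot be given.

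The deposited values are the authors' edgeR results in which every injured group was set against uninjured TA collected on that day. Each log2 fold change below is followed by its standard error (SE, written after ±), which was derived from the fold change and its F score, and by the authors' p-value adjusted over all transcripts. A gene counted as called when its adjusted p was under 0.05 and its fold change at least 1.5, and was represented by its transcript with the highest average CPM (reads scaled to library size). The 4 comparisons of a day share their uninjured libraries and are not independent. The headers of 2 of the 8 comparisons do not name a group and day and were taken as DSM3 and DSM14.

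Chemokines are small secreted proteins that leukocytes follow up a gradient through receptors coupled to inhibitory G proteins. The families are named for the spacing of their first cysteines (CC, CXC, CX3C and XC). Many are made within hours of damage by resident and infiltrating cells, and in injured muscle the monocyte attractants of the CC family and the neutrophil attractants of the CXC family are the best known. Others are made constantly and place lymphocytes and dendritic cells in lymphoid organs. Atypical receptors bind chemokines without G protein signalling and remove them.

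Cxcl1, Cxcl2 and Cxcl10 were chosen by role to be shown by their promoters. In rodents their transcription is known to respond to NF-kB and, for Cxcl10, to interferon. These genes also differ in which injured groups had high values. Ccl2 was planned too, but the reference used held no window for it. The windows of 300 bases are RefSeq's for the build GRCr8 and run from 250 bases before to 50 after the start of the gene, read 5′ to 3′ on the gene's strand. Capitals mark letters that fit GGNNNTTCC, an NF-kB-like motif, or TTTCNNTTT, an interferon-element-like motif, searched on both strands, and where both strands fit at 1 place it was counted once. The Cxcl1 window is chr14:17479272-17479571 on the minus strand, the Cxcl2 window is chr14:17467206-17467505 on the minus strand, and the Cxcl10 window is chr14:15988816-15989115 on the plus strand.
Cxcl1: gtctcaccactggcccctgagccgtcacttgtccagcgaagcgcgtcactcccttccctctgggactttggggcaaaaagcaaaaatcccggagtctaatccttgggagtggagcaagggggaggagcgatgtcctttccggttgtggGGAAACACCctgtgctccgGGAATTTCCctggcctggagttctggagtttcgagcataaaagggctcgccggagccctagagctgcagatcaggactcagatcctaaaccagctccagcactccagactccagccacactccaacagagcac
Cxcl2: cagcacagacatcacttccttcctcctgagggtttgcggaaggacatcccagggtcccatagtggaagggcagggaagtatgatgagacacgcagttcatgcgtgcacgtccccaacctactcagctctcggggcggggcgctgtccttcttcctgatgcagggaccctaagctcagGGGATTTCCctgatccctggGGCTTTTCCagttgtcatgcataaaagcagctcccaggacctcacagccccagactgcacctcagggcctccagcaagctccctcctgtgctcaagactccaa
Cxcl10: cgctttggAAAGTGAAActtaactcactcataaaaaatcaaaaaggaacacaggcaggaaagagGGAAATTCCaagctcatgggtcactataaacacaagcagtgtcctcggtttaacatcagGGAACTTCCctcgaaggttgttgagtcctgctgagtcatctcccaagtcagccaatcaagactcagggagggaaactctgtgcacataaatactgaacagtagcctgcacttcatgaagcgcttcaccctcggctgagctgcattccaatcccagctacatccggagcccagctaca
The Cxcl1 window held 2 NF-kB-like matches, at positions -102 and -83 relative to the start. The Cxcl2 window held 2, at positions -73 and -53. The Cxcl10 window held 2 NF-kB-like matches and 1 interferon-element-like match, the last at position -242. The NF-kB-like letters were found in 18.3% of 33469 promoter windows of the same length and in 19 of the 41 windows matched to members, and the interferon-element-like letters in 11.8% and in 7 of 41. A match of letters is a description and not a binding site.

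Members were called higher in all 4 groups at 3 DPI and, at 14 DPI, in the groups with a scaffold. At 3 DPI, 16 of the 52 genes were called higher in VML3 (30.8%, against 14.3% of all genes), 29 in MM3 (55.8%, against 20.1%), 30 in DSM3 (57.7%, against 18.3%) and 25 in DSM+MM3 (48.1%, against 16.5%). At 14 DPI, 21 were called higher in DSM14 (40.4%, against 10% of all genes) and 19 in DSM+MM14 (36.5%, against 15.1%). In the authors' edgeR test 0 members were called higher in VML14 and in MM14, where 0.53% and 0.0122% of all genes were called. At an unadjusted p under 0.05, 7 members were higher in VML14 (13.5%, against 11.5% of all genes), a share near that of the whole table. By the same measure 11 were higher in MM14 (21.2%, against 8.39%), 25 in DSM14 (48.1%, against 18.2%) and 26 in DSM+MM14 (50%, against 22.1%). Called lower was 1 member in VML3 (1.92%, against 2.12% of all genes), a share near that of the whole table. In MM3 it was also 1 (1.92%, against 15.1%). In edgeR 0 were called lower in DSM3, DSM+MM3, VML14, MM14, DSM14 and DSM+MM14, where 8.47%, 5.1%, 0.0853%, 0%, 0.555% and 1.34% of all genes were. At an unadjusted p under 0.05 these 6 groups had 1, 1, 0, 1, 1 and 0 lower members. The shares of all genes were 16.4%, 14.3%, 5.78%, 1.4%, 5.72% and 8.83%, where 1 member is 1.92%.

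**Figure D1:**
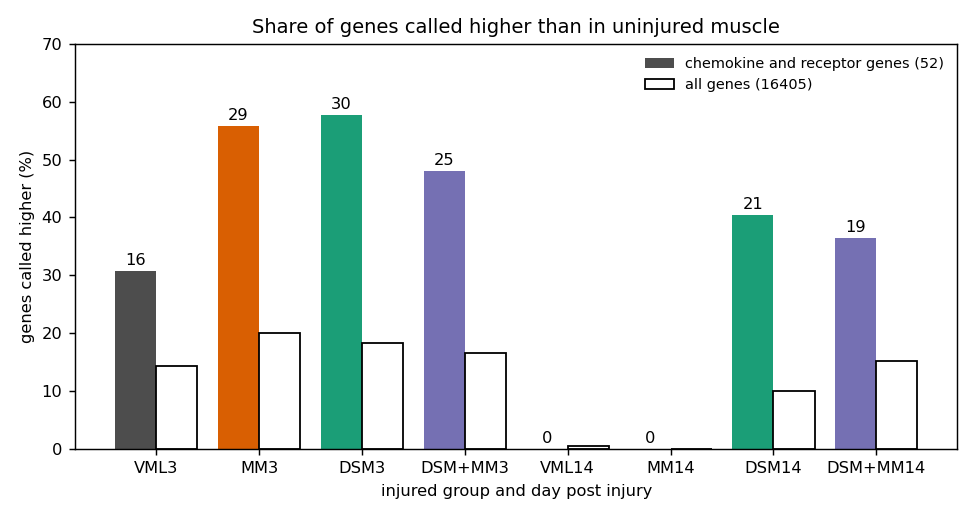
Share of genes called higher than in uninjured muscle (y axis, percent) in each injured group and day (x axis), for the 52 chemokine and receptor genes (filled bars, with the number called above each) and for all 16405 genes (open bars). The filled bars stand above the open ones in 6 groups, and in VML14 and MM14 they are at 0.

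Within each treatment the median was higher at 3 than at 14 DPI. Over the 34 members averaging at least 1 CPM, the median log2 fold change was 2.39 for VML3, 3.28 for MM3, 3.98 for DSM3 and 3.99 for DSM+MM3. At 14 DPI it was 0.96 for VML14, 1.31 for MM14, 2.68 for DSM14 and 3.29 for DSM+MM14. The medians of all genes at that level lay between -0.03 and 0.13. The 17 members averaging at least 10 CPM had a median of 1.70 in MM3, below the 2.31 of VML3 and close to the 1.66 of MM14. A set of 16 genes was called higher in all 4 groups at 3 DPI (30.8%, against 12.8% of all genes), 17 genes in both scaffold groups at 14 DPI (32.7%, against 8.99%), and 11 in all 6 (21.2%, against 6.88%). Joined over the groups, 36 members were called higher at least once (69.2%, against 24.7%), 2 were called lower (3.85%, against 16.8%) and 14 were never called (26.9%, against 58.6%). In the authors' edgeR test 0 members were called higher at 14 DPI alone, beside 2.66% of all genes.

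**Figure D2:**
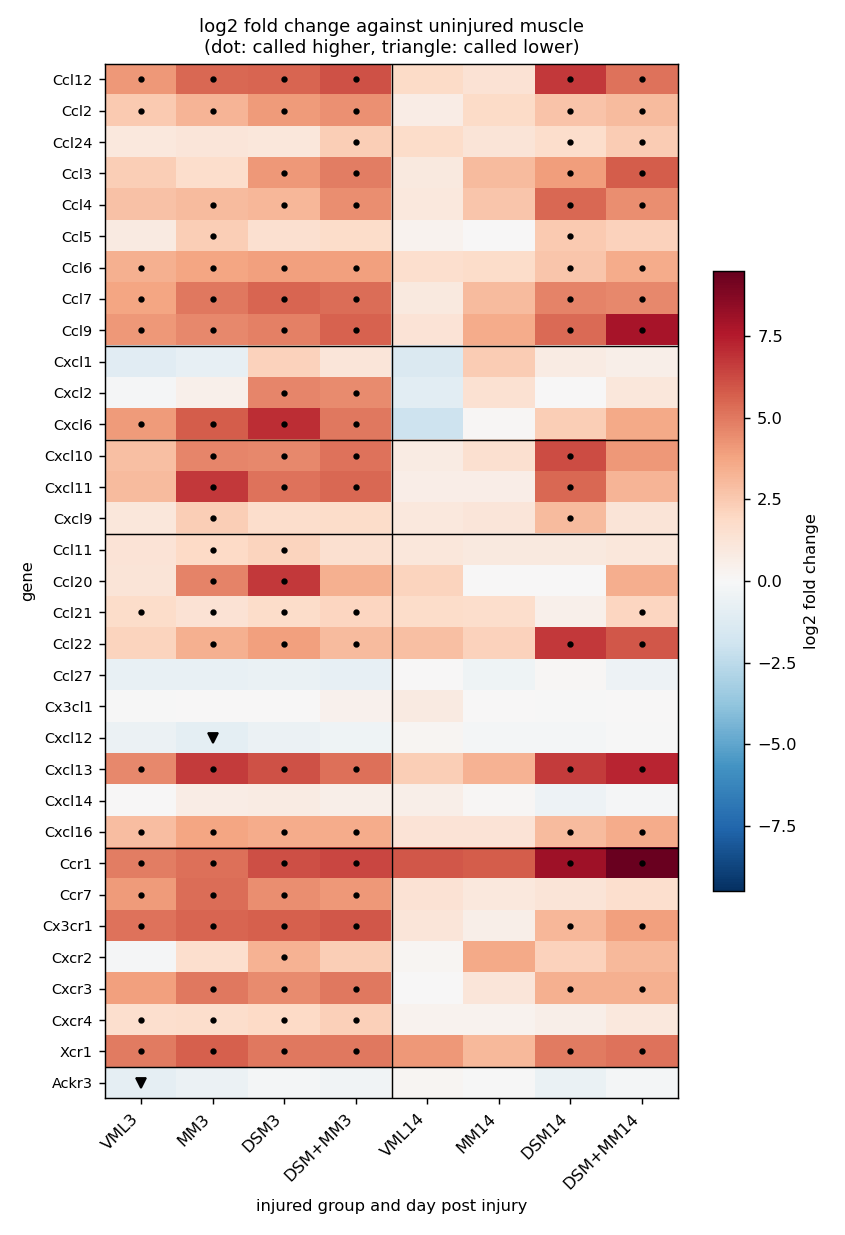
log2 fold change against uninjured muscle (colour) of 33 of the 34 members averaging at least 1 CPM (rows, in blocks from top to bottom: CC monocyte attractants with the eosinophil attractant Ccl24, CXC neutrophil attractants, interferon-induced ligands, other ligands, receptors, and the atypical receptor Ackr3) in the 8 comparisons (columns). Dots mark genes called higher and triangles genes called lower, and the columns VML14 and MM14 hold neither.

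The CC chemokines that attract monocytes rose at 3 DPI and, at 14 DPI, in the scaffold groups. Of 9 genes listed as such, 5 were called higher for VML3, 7 for MM3, 7 for DSM3, 8 for DSM+MM3, 9 for DSM14 and 8 for DSM+MM14, and edgeR called 0 in VML14 and MM14, where the medians were 0.97 and 1.79. The 9 include Ccl24, better known as an eosinophil attractant, which is among those called in DSM+MM3, DSM14 and DSM+MM14. Ccl2, the main ligand of the monocyte receptor Ccr2 and averaging 32.5 CPM, was higher by 2.47 ± 0.76 for VML3 (adjusted p = 0.0253), 3.21 ± 0.77 for MM3 (0.00251), 4.06 ± 0.79 for DSM3 (0.000525) and 4.36 ± 0.79 for DSM+MM3 (0.000306). At 14 DPI Ccl2 was called in DSM14 (2.71 ± 0.80, 0.0284) and DSM+MM14 (3.01 ± 0.80, 0.00911), with 0.67 ± 0.83 in VML14 and 1.79 ± 0.80 in MM14. On the linear scale the Ccl2 rise was 5.56-fold in VML3, 20.6-fold in DSM+MM3 and 8.05-fold in DSM+MM14. Ccl7, a further ligand of Ccr2, was called in the same 6 groups, with 3.77 ± 0.93 for VML3, 4.99 ± 0.95 for MM3, 5.54 ± 0.97 for DSM3, 5.29 ± 0.96 for DSM+MM3, 4.69 ± 1.11 for DSM14 and 4.59 ± 1.11 for DSM+MM14. Its values were 0.95 ± 1.42 in VML14 and 2.99 ± 1.19 in MM14, without a call. Ccl12, known in mouse as a monocyte attractant, was called in these 6 groups too, from 4.15 ± 1.34 in VML3 to 6.02 ± 1.31 in DSM+MM3 at the early day, and at 6.72 ± 1.53 in DSM14 and 5.13 ± 1.62 in DSM+MM14.

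Ccl2, Ccl7, Ccl11, Ccl12 and Ccl1 neighbour each other in the rat genome (assembly GRCr8), with at most 2 other protein-coding genes between neighbours. Ccl2, Ccl7 and Ccl12 were called in the same 6 groups, and Ccl11 and Ccl1 were not. The eosinophil attractant Ccl11 (1.10 CPM on average) was called in MM3 (1.86 ± 0.63, adjusted p = 0.0209) and DSM3 (2.08 ± 0.62, 0.0161), and lay at 1.30 ± 0.64 in VML3, 1.5 ± 0.64 in DSM+MM3 and between 0.90 and 1.11 at 14 DPI. Ccl1, a ligand of Ccr8, averaged under 1 CPM and was called in no group.

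A neighbouring run of genes holds Ccl5, Ccl9, Ccl6, Ccl3 and Ccl4. Ccl9 and Ccl6 are rodent ligands of Ccr1, and Ccl3, Ccl4 and Ccl5 attract monocytes and T cells. Ccl6 was called in 6 groups with little range at 3 DPI, from 3.39 ± 0.56 in VML3 (adjusted p = 0.000484) to 3.89 ± 0.57 in DSM3 (0.000116), and was 2.64 ± 0.58 in DSM14 and 3.49 ± 0.58 in DSM+MM14. In VML14 and MM14 it was 1.63 ± 0.59 (0.17) and 1.72 ± 0.59 (0.304). Ccl9 was called in the same 6 groups and had its highest value in DSM+MM14, where it was 7.81 ± 1.27 (0.000512), or 224-fold. The other values of Ccl9 were 4.13 ± 1.40 for VML3, 4.59 ± 1.38 for MM3, 4.78 ± 1.37 for DSM3, 5.59 ± 1.36 for DSM+MM3, 1.27 ± 1.43 for VML14, 3.54 ± 1.24 for MM14 and 5.37 ± 1.22 for DSM14.

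Ccl3 was called in the 4 groups with a scaffold and in no group without one. Its values were 2.31 ± 0.85 for VML3 (adjusted p = 0.0614), 1.70 ± 0.85 for MM3 (0.128), 4.13 ± 0.88 for DSM3 (0.00116) and 4.84 ± 0.89 for DSM+MM3 (0.000347). At 14 DPI they were 0.95 ± 1.33 for VML14, 3.03 ± 1.12 for MM14 (0.342), 3.95 ± 1.08 for DSM14 (0.0194) and 5.76 ± 1.06 for DSM+MM14 (0.000642). When p-values were adjusted over transcripts averaging at least 1 CPM alone, Ccl3 was also called in VML3 (0.0393). The test of the difference between groups is given further on. Ccl4, at 1.01 CPM, was called in MM3 (3.02 ± 1.17), DSM3 (3.16 ± 1.16), DSM+MM3 (4.39 ± 1.12), DSM14 (5.42 ± 1.40) and DSM+MM14 (4.39 ± 1.49). Ccl5 was called in MM3 (2.37 ± 0.79, 0.0199) and DSM14 (2.52 ± 0.78, 0.0372) and was 2.22 ± 0.78 in DSM+MM14 (0.0523, or 0.034 over transcripts averaging at least 1 CPM alone). The eosinophil attractant Ccl24 was called in DSM+MM3 (2.36 ± 0.53, 0.00199), DSM14 (1.69 ± 0.55, 0.0478) and DSM+MM14 (2.42 ± 0.55, 0.00259), and was between 1.01 and 1.21 in VML3, MM3, DSM3 and MM14, and 1.75 ± 0.55 in VML14 (0.119).

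The receptor Ccr1 rose in the groups where Ccl9 and Ccl6 did. It was called in the same 6 groups, from 4.89 ± 1.15 in VML3 to 6.35 ± 1.13 in DSM+MM3, then 8.04 ± 1.80 for DSM14 (adjusted p = 0.00718) and 9.42 ± 1.65 for DSM+MM14 (0.000594). In VML14 and MM14 Ccr1 had values of 5.89 ± 2.26 (0.196) and 5.76 ± 2.29 (0.401). These exceed its value in VML3 and were not called, and their errors were larger. Ccr1 averaged 3.80 CPM, and a fold change of this size rests on few or no reads in uninjured muscle and then depends on the prior count of the fit. Ccr1l1, a neighbour of Ccr1 of close sequence, was called in MM3 (4.61 ± 1.59) and DSM3 (4.98 ± 1.55) at an average under 1 CPM. How reads that fit both genes were counted is not given in the sources used here.

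The neutrophil attractants were called in different groups from one another. Cxcl1, Cxcl2 and Cxcl6 are ligands of Cxcr2 and carry neutrophils into tissue. Cxcl6 was called higher in all 4 groups at 3 DPI, at 4.01 ± 1.03 for VML3 (adjusted p = 0.009), 5.75 ± 0.99 for MM3 (0.000211), 7.05 ± 0.98 for DSM3 (0.000108) and 4.98 ± 1.00 for DSM+MM3 (0.000849). Cxcl2 was called in both scaffold groups and in neither group without one, at -0.09 ± 1.00 for VML3, 0.46 ± 0.97 for MM3, 4.61 ± 1.02 for DSM3 (0.00165) and 4.47 ± 1.01 for DSM+MM3 (0.00214). These last values correspond to rises of 24.5-fold and 22.1-fold. Cxcl1, the neighbour of Cxcl2 and close to it in sequence, was called in no group, with -1.09 ± 0.91 in VML3, -0.80 ± 0.90 in MM3, 2.16 ± 0.88 in DSM3 (0.0682, or 0.044 when adjusted over transcripts averaging at least 1 CPM alone) and 1.14 ± 0.87 in DSM+MM3 (0.403). The promoters printed above hold 2 NF-kB-like matches each for Cxcl1 and Cxcl2.

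At 14 DPI none of the neutrophil attractants was called. Cxcl2 was then between -1.02 ± 1.64 (VML14) and 1.42 ± 1.26 (MM14), and Cxcl1 between -1.40 ± 1.26 (VML14) and 2.40 ± 0.99 (MM14, adjusted p = 0.427). Cxcl6 was -1.99 ± 2.70 for VML14, 0.14 ± 2.35 for MM14, 2.36 ± 1.77 for DSM14 and 3.57 ± 1.53 for DSM+MM14 (0.117). The receptor Cxcr2, at 1.29 CPM, was called in DSM3 (3.30 ± 0.99, 0.0164), with -0.11 ± 1.12 in VML3, 1.63 ± 1.01 in MM3 and 2.32 ± 1.00 in DSM+MM3 (0.099). At 14 DPI Cxcr2 was 0.16 ± 2.71 for VML14, 3.59 ± 1.81 for MM14 (0.569), 2.16 ± 2.07 for DSM14 and 3.11 ± 1.85 for DSM+MM14 (0.277), without a call but with larger errors. Its neighbour Cxcr1 averaged under 1 CPM and was called nowhere.

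Genes that mark neutrophils moved with Cxcl2 in part. Of 10 neutrophil markers measured, 1 was called higher for VML3, 3 for MM3, 8 for DSM3 and 4 for DSM+MM3, with medians of 0.48, 0.98, 3.58 and 1.97. At 14 DPI 0, 0, 1 and 2 were called in VML14, MM14, DSM14 and DSM+MM14. The authors' edgeR test had 0 of them higher in VML14 and 4 in MM14 at an unadjusted p under 0.05. S100a9, abundant in neutrophils, was -1.23 ± 0.97 in VML3, 0.34 ± 0.91 in MM3, 2.66 ± 0.92 in DSM3 (adjusted p = 0.0347) and 0.73 ± 0.91 in DSM+MM3 (0.697). The 4 markers called in DSM+MM3 were Csf3r (3.95 ± 0.71), Mmp9 (7.04 ± 1.27), Camp (5.71 ± 1.10) and Elane (5.88 ± 1.55). Camp and Elane had average log2 CPM of -0.98 and -1.66, so their values rest on few reads. Those not called in DSM+MM3 included S100a8 (1.02 ± 0.87) and Lcn2 (2.20 ± 0.94, adjusted p = 0.0961). The part of neutrophil number in the values of Cxcl1, Cxcl2, Cxcl6 and Cxcr2 was not tested.

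The interferon-induced ligands of Cxcr3, a receptor of activated T cells, had most of their calls at 3 DPI in the repaired groups and at 14 DPI in DSM14. Cxcl10 was 2.88 ± 1.36 for VML3 (adjusted p = 0.144), 4.67 ± 1.41 for MM3 (0.0113), 4.59 ± 1.41 for DSM3 (0.0186) and 5.16 ± 1.43 for DSM+MM3 (0.0106). At 14 DPI Cxcl10 was 0.75 ± 1.87 for VML14, 1.55 ± 1.73 for MM14, 6.21 ± 1.60 for DSM14 (0.0138) and 4.13 ± 1.57 for DSM+MM14 (0.0718), and 6.21 is its highest value of the 8. Cxcl11, at 3.37 CPM, was called in the same 4 groups, MM3 (6.71 ± 1.70), DSM3 (5.15 ± 1.73), DSM+MM3 (5.47 ± 1.71) and DSM14 (5.48 ± 1.66, 0.0342), with 3.02 ± 1.89 in VML3 and 3.21 ± 1.78 in DSM+MM14 (0.239). Cxcl9, which responds mainly to interferon gamma, was called in MM3 (2.33 ± 0.66, 0.00744) and DSM14 (2.98 ± 0.68, 0.00707), and lay between 1.02 and 1.72 in the other 6 groups. With p-values adjusted over transcripts averaging at least 1 CPM alone, Cxcl10 was also called in DSM+MM14 (0.0472) and Cxcl9 in DSM3 (0.0383) and DSM+MM3 (0.0384). The 3 genes neighbour each other, and all 3 were called in MM3 and in DSM14.

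**Figure D3:**
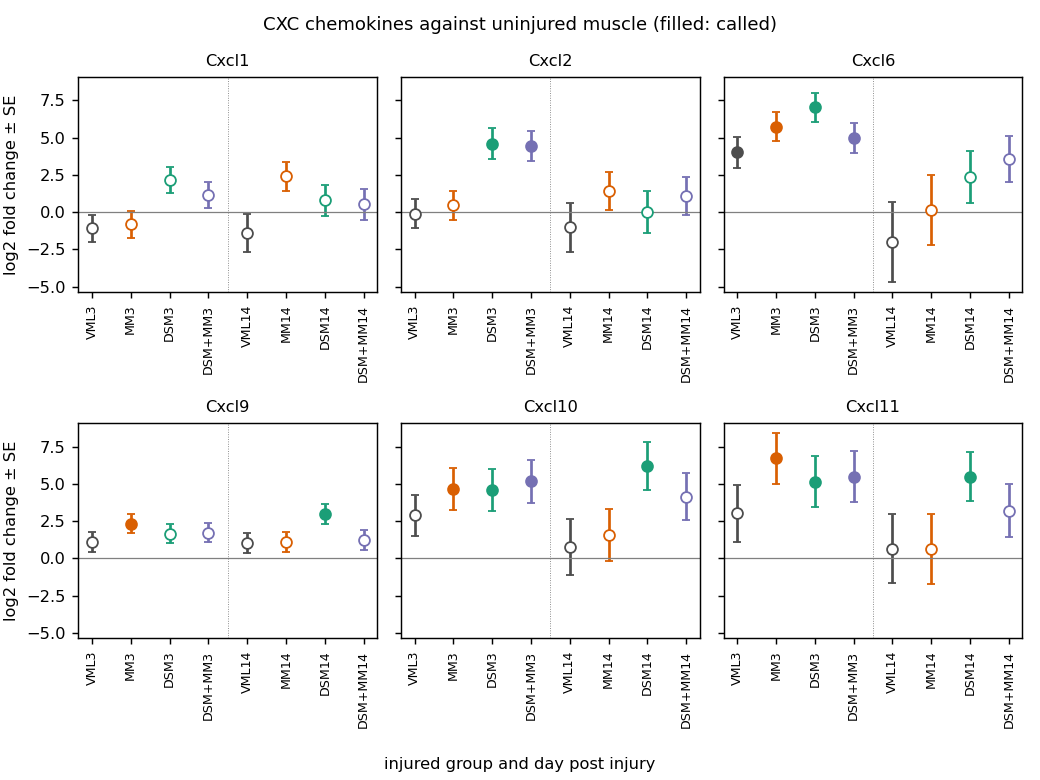
log2 fold change against uninjured muscle (y axis; points, with bars of 1 SE) of 3 neutrophil attractants (upper row) and 3 interferon-induced ligands (lower row) in the 8 injured groups (x axis, 3 DPI left of the dotted line). Filled points were called, and Cxcl2 is filled in DSM3 and DSM+MM3 while Cxcl9 is filled in MM3 and DSM14.

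Their receptor Cxcr3, at 1.37 CPM, was called in MM3 (5.02 ± 1.28), DSM3 (4.49 ± 1.31), DSM+MM3 (5.03 ± 1.28), DSM14 (3.36 ± 1.07) and DSM+MM14 (3.37 ± 1.07), and was 3.86 ± 1.35 in VML3 (adjusted p = 0.0509, or 0.0323 over transcripts averaging at least 1 CPM alone). It was 0.03 ± 1.5 in VML14 and 1.14 ± 1.25 in MM14. Genes of the T cell list were called in these 5 groups and in VML3, where they were Cd4, Cd8a, Cd8b, Lck and Cd2. Cd4 had an average log2 CPM of 5.69, where Cd3e, Cd3d and Cd3g had -0.03, -1.07 and -0.76. Cd4 is therefore not read here as a marker of T cells alone. The markers Cd3e, Cd3d and Cd3g were called in neither VML3 nor DSM+MM14. Of 10 measured, 5 were called higher for VML3, 9 for MM3, 10 for DSM3, 8 for DSM+MM3, 7 for DSM14 and 5 for DSM+MM14, and in edgeR 0 were in VML14 and in MM14, with medians there of 0.66 and 1.40 and 1 marker higher in each at an unadjusted p under 0.05. The part of T cell number in these values was not tested.

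Ligands of Ccr4 on T helper and regulatory T cells had higher values at 14 DPI than at 3 DPI in the scaffold groups, though the change of Ccl22 between days was not called. Ccl22 was called in MM3 (3.34 ± 1.05), DSM3 (3.87 ± 1.03) and DSM+MM3 (2.99 ± 1.08, adjusted p = 0.0466), and reached 6.75 ± 1.21 in DSM14 (0.00351) and 5.93 ± 1.24 in DSM+MM14 (0.00149). Its average log2 CPM was only 0.40, so the limit given for the fold changes of Ccr1 holds for Ccl22 too. Ccl17, averaging under 1 CPM, was called in DSM3 (4.03 ± 1.23), DSM14 (5.97 ± 1.61) and DSM+MM14 (5.40 ± 1.69). Cx3cl1 lies between these genes on the chromosome and was called nowhere. Ccr4 itself, under 1 CPM, was called in DSM3 (4.91 ± 1.70, 0.042). Ccr4, Ccr3, Ccr1l1 and Cxcr1 had no counts in VML14, MM14 or the uninjured muscle of that day, so their fitted values at 14 DPI depend on the prior count and are not given as folds.

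Ccl20, the ligand of Ccr6 on dendritic and T helper cells, was called in MM3 (4.72 ± 1.44, adjusted p = 0.015) and DSM3 (6.73 ± 1.42, 0.00196) and was 1.23 ± 1.77 in VML3 and 3.39 ± 1.53 in DSM+MM3 (0.121). At 14 DPI it had no counts in MM14, DSM14 or uninjured muscle. Ccr6, under 1 CPM, was called in all 4 groups at 3 DPI (from 5.29 ± 1.67 in VML3 to 6.42 ± 1.51 in DSM3) and in DSM+MM14 (5.44 ± 1.69). Ccl21 guides cells with Ccr7 into lymphatic vessels and was called at 1.76 ± 0.46 for VML3, 1.39 ± 0.45 for MM3, 1.78 ± 0.46 for DSM3 and 2.03 ± 0.46 for DSM+MM3. At 14 DPI Ccl21 was 1.75 ± 0.46 for VML14 (0.0664, or 0.0404 over transcripts averaging at least 1 CPM alone), 1.66 ± 0.46 for MM14 (0.19), 0.47 ± 0.46 for DSM14 (0.63) and 2.06 ± 0.46 for DSM+MM14 (0.00242), and so DSM14 had its lowest value of the 8. Ccr7 was called in all 4 groups at 3 DPI, at 4.01 ± 0.92, 5.30 ± 0.91, 4.45 ± 0.91 and 4.10 ± 0.92 in VML3, MM3, DSM3 and DSM+MM3. At 14 DPI Ccr7 lay between 0.98 ± 0.92 and 1.58 ± 0.87 and was called in none. Of 4 lymphatic endothelial markers, Lyve1 and Pdpn, which macrophages and fibroblasts also express, were called in all 4 groups at 3 DPI, while Prox1 and Flt4 lay between -0.28 and 0.15. The part of lymphatic vessels in the value of Ccl21 was not tested.

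Cxcl12, which holds stem cells and lymphocytes in place and guides muscle precursors, was measured on 3 transcripts, 2 of them with values of opposite sign at 3 DPI. NM_001033883, the leading one at 60.7 CPM, was called lower in MM3 (-0.92 ± 0.24, adjusted p = 0.0044) and was -0.59 ± 0.24 for VML3, -0.57 ± 0.24 for DSM3 and -0.38 ± 0.24 for DSM+MM3. NM_022177, at 48.3 CPM, was called higher in MM3 (0.89 ± 0.27, 0.0113), DSM3 (1.34 ± 0.27, 0.000762), DSM+MM3 (0.77 ± 0.27, 0.0397) and DSM+MM14 (1.20 ± 0.27, 0.00242), and was 0.70 ± 0.27 in VML3 (0.0766). At 14 DPI NM_001033883 lay between -0.19 and 0.15. The remaining transcript, NM_001033882, had no counts. All 3 belong to 1 gene and share sequence, and how reads in shared exons were counted is not given in the sources used here. Other transcripts of genes abundant in muscle, such as Tnnt3 of the fast troponin complex, also had no counts in this table, so a transcript without counts is not shown to be absent. The 2 directions are therefore values of transcripts as counted and not of the gene.

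Cxcr4, the signalling receptor of Cxcl12, was called higher at 3 DPI by 1.60 ± 0.37 for VML3, 1.67 ± 0.37 for MM3, 1.90 ± 0.37 for DSM3 and 2.29 ± 0.38 for DSM+MM3 (adjusted p = 0.000127). At 14 DPI Cxcr4 was between 0.31 ± 0.38 in MM14 and 1.00 ± 0.37 in DSM+MM14 (0.067, or 0.0439 over transcripts averaging at least 1 CPM alone) and was not called. Ackr3, the atypical receptor that removes Cxcl12, averaged 64.2 CPM and was called lower in VML3 (-0.87 ± 0.26, 0.0249). It was -0.56 ± 0.26 for MM3 (0.102), -0.17 ± 0.26 for DSM3 and -0.33 ± 0.26 for DSM+MM3. Of 10 skeletal muscle genes, 7 were called lower in MM3 and 3 in DSM3, with medians of -1.22 for VML3, -2.09 for MM3, -1.55 for DSM3 and -0.97 for DSM+MM3. Tnnt3, which had no counts, is among the 10 and enters these medians with a value of 0.00. The part of a smaller share of muscle RNA in the lower values of Cxcl12 and Ackr3 was not tested.

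**Figure D4:**
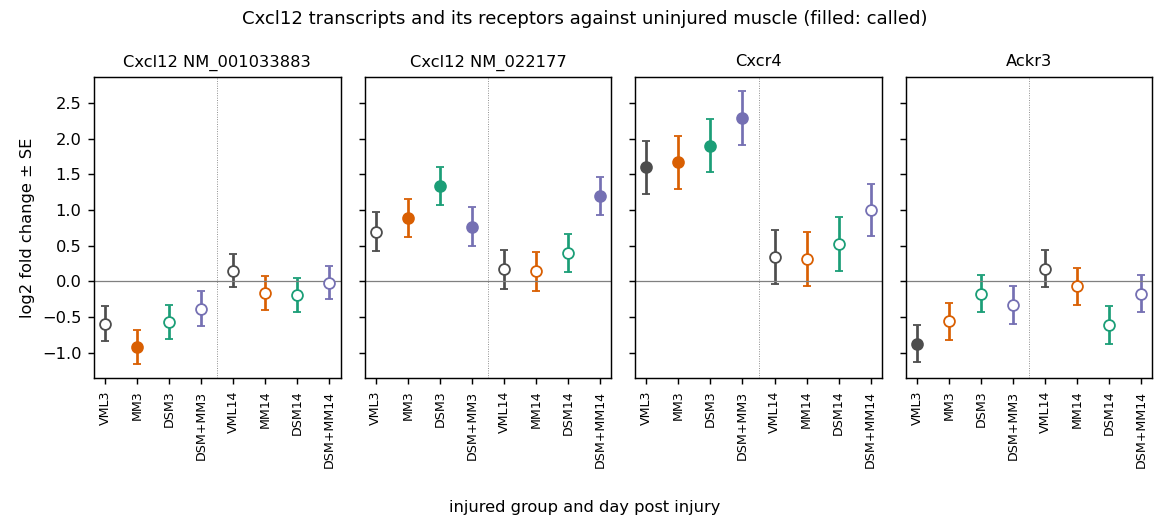
log2 fold change against uninjured muscle (y axis; points, with bars of 1 SE) of the 2 counted Cxcl12 transcripts and of the receptors Cxcr4 and Ackr3 in the 8 injured groups (x axis, 3 DPI left of the dotted line). Filled points were called, and at 3 DPI NM_001033883 lies below 0 and NM_022177 above 0 in all 4 groups.

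Among the remaining ligands, Cxcl13 and Cxcl16 rose. Cxcl13 attracts B cells through Cxcr5 and was called in 6 groups, at 4.58 ± 1.33 for VML3, 6.63 ± 1.36 for MM3, 6.05 ± 1.34 for DSM3, 5.20 ± 1.33 for DSM+MM3, 6.61 ± 1.49 for DSM14 and 7.20 ± 1.49 for DSM+MM14 (adjusted p = 0.00138). In VML14 and MM14 it was 2.31 ± 1.80 and 3.33 ± 1.65. Cxcr5 was called in no group, and of 3 measured B cell markers 1 was called, in DSM3. Cxcl16, a membrane-bound ligand of Cxcr6 that also takes up oxidized lipids, was called at 2.91 ± 0.66 for VML3, 3.77 ± 0.67 for MM3, 3.54 ± 0.67 for DSM3, 3.52 ± 0.67 for DSM+MM3, 3.04 ± 0.67 for DSM14 and 3.56 ± 0.67 for DSM+MM14 (0.000744). It was 1.30 ± 0.67 in VML14 and 1.27 ± 0.67 in MM14. Cxcr6, under 1 CPM, was called nowhere, and its highest value was 3.02 ± 1.06 in DSM14 (0.0712).

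Cx3cr1 and Xcr1 were called in more groups than their ligands. Cx3cr1, carried by patrolling monocytes and tissue macrophages, was called in all 4 groups at 3 DPI (5.16 ± 0.96, 5.54 ± 0.96, 5.69 ± 0.96 and 5.91 ± 0.96 in VML3, MM3, DSM3 and DSM+MM3) and in DSM14 (3.13 ± 0.91, adjusted p = 0.0267) and DSM+MM14 (3.88 ± 0.89, 0.00296). Its ligand Cx3cl1, made by vessel and nerve cells at 10 CPM here, lay between -0.07 and 0.42 at 3 DPI and between -0.02 and 0.89 at 14 DPI without a call. Xcr1, which marks cross-presenting dendritic cells in mouse and human, was called in 6 groups, from 4.96 ± 1.19 in VML3 to 5.71 ± 1.14 in MM3 at 3 DPI, with 4.96 ± 1.21 for DSM14 and 5.19 ± 1.19 for DSM+MM14. At an average log2 CPM of 0.14, Xcr1 carries the limit given for the fold changes of Ccr1. Its values in VML14 (4.09 ± 1.31, 0.124) and MM14 (3.08 ± 1.45, 0.513) were not called, and its scaffold difference at 14 DPI was 1.49 ± 0.98 (0.286). Its ligand Xcl1, under 1 CPM, was called in MM3 (4.02 ± 0.98, 0.00276) and DSM3 (2.94 ± 1.04, 0.0375). Of 3 dendritic cell markers measured, 1 was called for VML3, 2 for MM3, 2 for DSM3, 1 for DSM+MM3 and 1 for DSM+MM14.

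The members with the highest averages had small fold changes. Cxcl14, at 71.7 CPM the highest average of all members, lay between -0.47 ± 0.30 (DSM14) and 0.75 ± 0.30 (DSM3, adjusted p = 0.058) and was called in no group, although it was in MM3 (0.0439) and DSM3 (0.0373) when p-values were adjusted over transcripts averaging at least 1 CPM alone. Cxcl14, Ackr3 and the leading transcript of Cxcl12 hold the highest averages of the members, and none of them was called higher. These CPM values are not corrected for transcript length, so the order of genes by CPM is one of read counts. Ccl27, known as a skin chemokine, was between -0.79 and 0.11. Of the 18 members averaging under 1 CPM, 2 (Ccl26 and Ccl28) had no counts in any library. Called among the low members, beside those already given, were Ccr3 in DSM+MM3 (4.10 ± 1.19), Ccr9 in MM3 (2.54 ± 0.90) and Cxcl17 in MM3 (3.23 ± 1.27). The low members Ackr2, Ccl1, Ccl19, Ccl25, Ccr10, Cxcr1, Cxcr5 and Cxcr6 were never called, and their values rest on few reads.

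Differences between injured groups of a day were tested for each member, with the part of the error that belongs to the common uninjured libraries taken out. In the 6 pairs of groups at 3 DPI, 0 of 35 member transcripts averaging at least 1 CPM differed at an adjusted p under 0.05, as did 0% of all transcripts. At an unadjusted p under 0.05, 1 member was higher in MM3 than in VML3, 8 in DSM3 than in VML3, 6 in DSM+MM3 than in VML3, 3 in DSM3 than in MM3 and 4 in DSM+MM3 than in MM3, while DSM+MM3 and DSM3 differed in 2. These are 2.86%, 22.9%, 17.1%, 8.57%, 11.4% and 5.71% of the 35, beside 1.07%, 0.931%, 2.39%, 0.885%, 4.41% and 0.848% of all transcripts in either direction. Each share of all transcripts is below the 0.05 that this threshold gives where nothing differs. The test was thus conservative at 3 DPI, and its 0 calls do not show that the groups were alike. In the 6 pairs at 14 DPI, 0 members differed again, beside 0.0738% of all transcripts between DSM+MM14 and VML14 and 0% in the other 5 pairs. At an unadjusted p under 0.05 the number was 2 between MM14 and VML14 (5.88%, near the 6.37% of all transcripts), 19 between DSM14 and VML14 (55.9%, against 13.8%) and 15 between DSM+MM14 and VML14 (42.9%, against 32.2%). Of these, 1, 15 and 13 were higher in the group named first. It was 10 between DSM14 and MM14 (29.4%, against 4.41%), 11 between DSM+MM14 and MM14 (32.4%, against 14.1%) and 3 between DSM+MM14 and DSM14 (8.82%, against 3.12%), of which 9, 11 and 2 were higher in the group named first. The largest of these between DSM+MM14 and VML14 was Ccl9, higher by 6.54 ± 1.45 (95% interval 3.57 to 9.51, adjusted p = 0.0564). The interaction of scaffold and graft was called for 0 members and 0% of all transcripts at both days, with 2 members at an unadjusted p under 0.05 at 3 DPI (5.71%, against 1.29%) and 3 at 14 DPI (8.82%, against 1.68%). The interaction carries the same limit at both days, as do the pairs DSM14 with MM14 and DSM+MM14 with DSM14.

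Contrasts that pooled the 2 scaffold groups and the 2 groups without a scaffold were added after the values had been seen. At 14 DPI 2 of 34 member transcripts were higher with a scaffold, beside 1.59% of 10845 transcripts called in either direction, and at an unadjusted p under 0.05 the count was 18 members higher and 2 lower (58.8%, where all transcripts had 29%). The called ones were Ccl9, by 4.19 ± 0.98 (95% interval 2.18 to 6.20, adjusted p = 0.0403), and Cxcl16, by 2.01 ± 0.50 (0.97 to 3.05, 0.0437). Both lost their call when no shared error was taken out (adjusted p = 0.445 for each), and Cxcl16 also when all transcripts with counts were tested (0.0519). Those just past the threshold included Cx3cr1 (2.63 ± 0.74, 0.0569), Ccl5 (2.20 ± 0.63, 0.057) and Ccl22 (3.82 ± 1.12, 0.0602). Members with values below 0 in this contrast included Cxcl14 (-0.61 ± 0.23, 0.112), Ackr3 (-0.45 ± 0.20, 0.147) and Ccl21 (-0.44 ± 0.35, 0.37).

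At 3 DPI the same contrast called 0 members and 0% of all transcripts, with 6 members at an unadjusted p under 0.05 (17.1%, against 2.78%), all higher with a scaffold. Cxcl2 came nearest, higher by 4.35 ± 0.76 (95% interval 2.80 to 5.91, adjusted p = 0.0506), followed by Cxcl1 (2.60 ± 0.67, 1.21 to 3.98, 0.467) and Ccl3 (2.48 ± 0.65, 1.14 to 3.83, 0.509). At 14 DPI the scaffold difference of Cxcl2 was 0.36 ± 1.06 (-1.82 to 2.53). Groups with a graft minus groups without gave 0 called members and 0% of all transcripts at both days, with 0 members at an unadjusted p under 0.05 at 3 DPI (against 0.544%) and 4 at 14 DPI (11.8%, against 7.08%). Both pooled contrasts at 3 DPI carry the limit given for the pairs of that day.

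**Figure D5:**
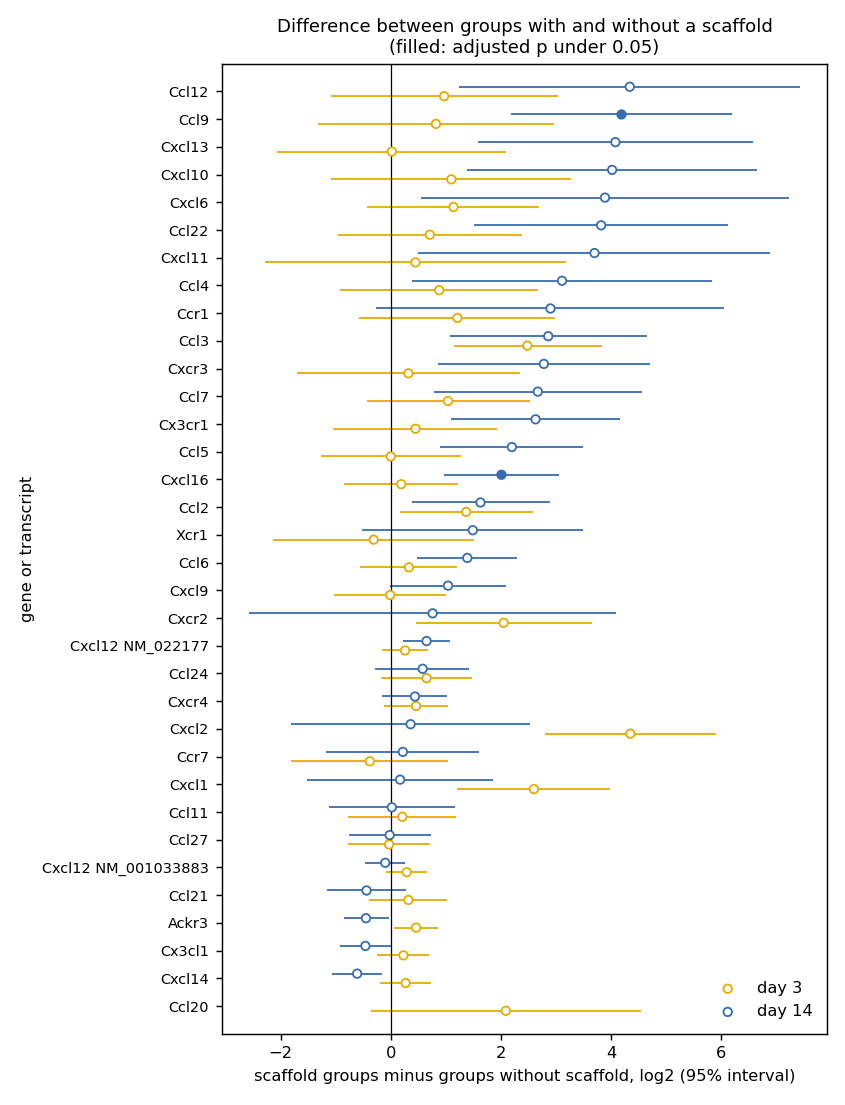
Mean of the 2 scaffold groups minus mean of the 2 groups without a scaffold (x axis, log2, points with 95% intervals) for 34 of the 35 member transcripts averaging at least 1 CPM (y axis, ordered by the value at 14 DPI), at 3 DPI (yellow) and 14 DPI (blue). Filled points, Ccl9 and Cxcl16 at 14 DPI, have an adjusted p under 0.05, and Cxcl2 and Cxcl1 lie far from 0 at 3 DPI and near it at 14 DPI.

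Changes between days were tested within each treatment as the fold change at 14 DPI minus that at 3 DPI. For members 0 were called in all 4 treatments, beside 0.00922% of all transcripts in VML, 0.0645% in MM and 0% in DSM and in DSM+MM. At an unadjusted p under 0.05 there were 8 members in VML (22.9%, against 20.1% of all transcripts), 10 in MM (29.4%, against 30%), 6 in DSM (17.6%, against 6.52%) and 2 in DSM+MM (5.71%, against 6.08%). The shares in VML, MM and DSM+MM were near those of the whole table. Cx3cr1 was lower at 14 than at 3 DPI by -4.97 ± 1.45 in MM (adjusted p = 0.0938) and by -3.99 ± 1.41 in VML (0.221). Ccr7 was lower by -4.32 ± 1.30 in MM (0.0974) and by -3.26 ± 1.28 in DSM (0.611). Cxcr4 had differences of -1.25 ± 0.53, -1.36 ± 0.53, -1.37 ± 0.53 and -1.28 ± 0.53 in VML, MM, DSM and DSM+MM, nearly equal values that passed the adjusted threshold in none. The absence of calls in VML14 and MM14 beside calls in VML3 and MM3 is thus not, for any single member, a tested change between days.

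Genes below the receptors were taken from a list of G protein subunits, kinases, Rac regulators, arrestins and regulators of G protein signalling. Of 37 measured, 23 were called higher for VML3, 28 for MM3, 27 for DSM3, 28 for DSM+MM3, 15 for DSM14 and 22 for DSM+MM14, and in edgeR 0 for VML14 and MM14, where the medians were both 0.47 and 7 and 11 were higher at an unadjusted p under 0.05. Called lower were 1 in VML3, 1 in MM3 and 1 in DSM3, in each case Gnao1. Genes restricted to leukocytes were among those that rose. Rgs1, a brake on chemokine receptor signalling in lymphocytes and macrophages, was 4.71 for VML3, 5.74 for DSM+MM3, 5.91 for DSM14 and 7.56 for DSM+MM14. Vav1 and Rac2, which drive the actin changes of moving leukocytes, were 4.84 and 3.39 in VML3 and 5.49 and 4.33 in DSM+MM14, while Rac1 and Cdc42 lay between -0.28 and 0.24 in all 8 groups. Other widely expressed members of the list were called higher in all 4 groups at 3 DPI, among them the G protein subunits Gnai2 (1.28 to 1.62), Gnai3 (1.52 to 1.76) and Gnb1 (0.97 to 1.30) and the arrestin Arrb2 (1.60 to 1.86).

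Other chemoattractants and their receptors were called in the same 6 groups. Of 16 present, with Mif among them although it had no counts, 9 were called higher for VML3, 9 for MM3, 10 for DSM3, 10 for DSM+MM3, 7 for DSM14 and 9 for DSM+MM14. In VML14 and MM14 edgeR called 0, with 8 and 6 higher at an unadjusted p under 0.05. S1pr1, the sphingosine receptor of vessels and lymphocytes, was called lower in MM3 and DSM3. The complement receptor C5ar1 was 4.21 in VML3, 5.13 in DSM+MM3 and 4.70 in DSM+MM14, and Pf4, a platelet and macrophage chemokine outside the rule, was 3.49, 4.42 and 4.16 in these groups.

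Macrophage and monocyte markers were called in the groups where the CC ligands and receptors were. Of 13 markers, 13 were called higher in each group at 3 DPI, 12 for DSM14 and 13 for DSM+MM14, with medians of 4.62, 4.96, 5.08 and 4.83 at 3 DPI and of 4.00 for DSM14 and 4.58 for DSM+MM14. In VML14 and MM14 edgeR called 0, with medians of 2.09 in both and 10 and 11 higher at an unadjusted p under 0.05. Of 6 fibroblast markers, 5 were called for VML3, 6 for MM3, 6 for DSM3, 6 for DSM+MM3, 5 for DSM14 and 6 for DSM+MM14. The edgeR test called 0 of them in VML14 and MM14, where their medians were 2.74 and 2.32. At an unadjusted p under 0.05, 5 were higher in each of these 2 groups. Of 6 blood endothelial markers 1 was called, lower in MM3, and their medians lay between -0.26 and 0.31. The part of macrophage number in the values of the CC ligands, Ccr1 and Cx3cr1 was not tested.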

How the data were processed

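RNA of the 32 libraries was sequenced on the BGISEQ-500. Per the labels and the study's methods, the authors aligned reads with STAR to the build Rnor_6.0, used featureCounts to count reads over RefSeq transcripts, and scaled libraries by TMM. The authors ran the tests in edgeR, and versions are not given in the sources used here. The deposited log2 values are fold changes and average CPM, the deposited score is the test's F, and the deposited p-values are adjusted by Benjamini-Hochberg over 18281 transcripts. Depth per library is not given there, so precision is known only through each F. Columns of the authors' comparisons were the only measurements and were used as such. SE is the fold change over the root of F, which is approximate because the fold changes were shrunk with a prior count.

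RefSeq symbols matched 17351 transcripts. Tests of differences took in the transcripts with an average of 1 CPM or more, with up to 26.4 degrees of freedom. They removed 0.429 of the variance for the 4 uninjured libraries common to a day. This assumes equal variance per library and independent uninjured and injured muscles, although contralateral pairs can come from 1 rat. A simulation of 1 pair of groups was built on the same assumptions and cannot check them. The pooled contrasts were not simulated. DSM3 and DSM14 were identified from the groups left over, and identical fold changes of few-count transcripts were found for 109 to 188 rows within a day and 0 between days. Alternatives were the fold and p thresholds, the filter, the transcript taken and the shared variance.

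Members and gene lists were chosen with earlier results of these data known. All members averaging at least 1 CPM were to be named, the others by counts and range, with called low members named after their values were seen. A receptor is counted but not reported by name here. Python 3.11.15, matplotlib 3.10.9, pandas 2.3.3, scipy 1.17.1 and numpy 2.4.6 were used.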

Additional observations from a re-analysis of the deposited data

Results flagged for a closer look

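Ccl9 and Cxcl16 differed between the groups with and without a scaffold at 14 DPI by a test of the difference itself. Ccl9 was higher with a scaffold by 4.19 on the log2 scale (18.2-fold) and Cxcl16 by 2.01 (4.03-fold), in a contrast chosen after the values had been seen, and both calls were lost when no shared error was taken out (adjusted p = 0.445 for each), that of Cxcl16 also over all transcripts with counts (0.0519). At 3 DPI the same differences were 0.82 ± 1.04 and 0.19 ± 0.50. Single libraries were not analysed here, so how many rats show each direction is not known.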

How the results depend on the processing

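Of 166 alternative values of the counts and medians, 153 were labelled the same. A count was labelled so when it changed by at most 1.5-fold, and a median when it moved by less than the members' median SE. Many of the 153 were counts of 0 beside 0. A reversal could be found for medians only, and 0 of them reversed. An adjusted p under 0.01 left 18 members higher in MM3, 19 in DSM3 and 10 in DSM14, and 0 lower in VML3. A log2 fold change over 1.5 left 0 lower in VML3 and in MM3. With adjustment over transcripts averaging at least 1 CPM, 1 member (Ccl21) was called in VML14. The median of MM3 was 1.70 for members averaging at least 10 CPM. Taking out the share of variance for 3 against 3 libraries, which the study's methods give, called 5 members between DSM+MM14 and VML14, 1 (Cxcl2) with a scaffold at 3 DPI and 11 at 14 DPI, where 616 of all transcripts were then called. With no shared part taken out the last was 0 members of 0 transcripts, and over all transcripts with counts it was 1 member of 93 transcripts. The calls between scaffold groups thus rest on this share. Without single-library values leaving out replicates was not run, and the precision of lowly expressed members is limited. No paired analysis was possible because the deposited columns hold comparisons and no replicate numbers.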
